A study of Mus musculus with 10 samples.

Results

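The comparison described here is that of RSK2(-/-) with RSK2(+/+) mammary epithelial cells at estrus, the stage of the mouse cycle at which ovulation takes place. It took the 3 libraries labelled KO and the 3 labelled WT at estrus, out of 10 libraries in all, and the 15180 genes of 26312 in the table whose mean over the 10 libraries was at least 10 normalized counts. A normalized count is a read count that the authors divided by a factor for its library and rounded, and it is not divided by gene length. All mice were 12-week-old C57BL/6J mice of genotype RSK2(+/+), called WT, or RSK2(-/-), called KO, with 2 more libraries of each genotype at diestrus. Cells came from the 4th mammary glands and were sorted as EpCAM-high, CD49f-low, Sca1-positive and CD49b-negative, 50000 cells at a time. How the RSK2 gene was disrupted, and whether a library came from 1 mouse or a pool, is not given in the sources used here, so p-values measure the spread between these libraries. The word WT also stands in the titles of KO libraries, so groups were taken from the genotype entries.

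RSK2 is a serine/threonine kinase of the p90 ribosomal S6 kinase family, encoded by Rps6ka3 on the X chromosome. It is phosphorylated and activated by the ERK MAP kinases downstream of growth factor receptors, and its substrates include transcription factors and regulators of translation. The gate used here is known to hold hormone-sensing luminal cells, which carry estrogen and progesterone receptors and pass hormonal signals on to neighbouring cells by secreted factors.

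Markers of that cell type were compared between the genotypes, which does not measure the purity of the sort. Prlr, the prolactin receptor, had 37748, 46353 and 40458 normalized counts in the KO estrus libraries 1, 2 and 3, and 40185, 48303 and 33645 in the WT ones. Krt18, a luminal keratin, had 97837 to 126717 in KO and 94848 to 132114 in WT. Of the 12 hormone-sensing markers tested, 0 were called between the genotypes (limma, as below), against 4.2% of all tested genes. At an unadjusted limma p below 0.05 there was 1, against 25.8%, and the median log2 difference was -0.03. Rps6ka3 itself had 158, 156 and 164 normalized counts in the KO estrus libraries and 136, 128 and 137 in the WT ones, so the KO libraries were the higher ones (exact two-sided permutation p = 0.1, the smallest that 3 against 3 allows). The count covers the whole gene, so it does not check the genotype. Reads per library, estimated from the spacing of low values, ranged from 12.0 to 16.7 M over the 10 libraries. On the first principal component, with 29.3% of the variance, the 3 KO estrus libraries lay between -55.8 and -37.4 and the other 7 between 5.50 and 33.1.

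At an adjusted p of 0.05 (limma, Benjamini-Hochberg over all tested genes), 637 genes were called at estrus, which is 4.2% of those tested. Of these, 191 were higher in KO (1.26%) and 446 were lower (2.94%), and in each of the 637 the 3 KO libraries did not overlap the 3 WT libraries. Libraries that do not overlap were also common among the rest: 12.9% of all tested genes had all KO values above the WT values and 13.1% had them below. At an unadjusted p below 0.05 there were 3919 genes (25.8%). The called differences were mostly moderate, with a median log2 of 0.80 among the higher and -0.81 among the lower genes, and 58 and 103 of them passed a log2 of 1. The split between directions depended on how libraries were scaled: with libraries brought to equal totals it was 271 higher and 303 lower, and with quantile normalization 397 and 423. The count depended on single libraries. Leaving out KO estrus 1, 2 or 3 gave 73, 552 or 909 calls, and leaving out WT estrus 1, 2 or 3 gave 799, 67 or 67. Without a diestrus library, which enters the test through the shared estimate of the spread, it was 105 and 104 (KO 1 and 2) and 172 and 171 (WT 1 and 2).

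**Figure D1:**
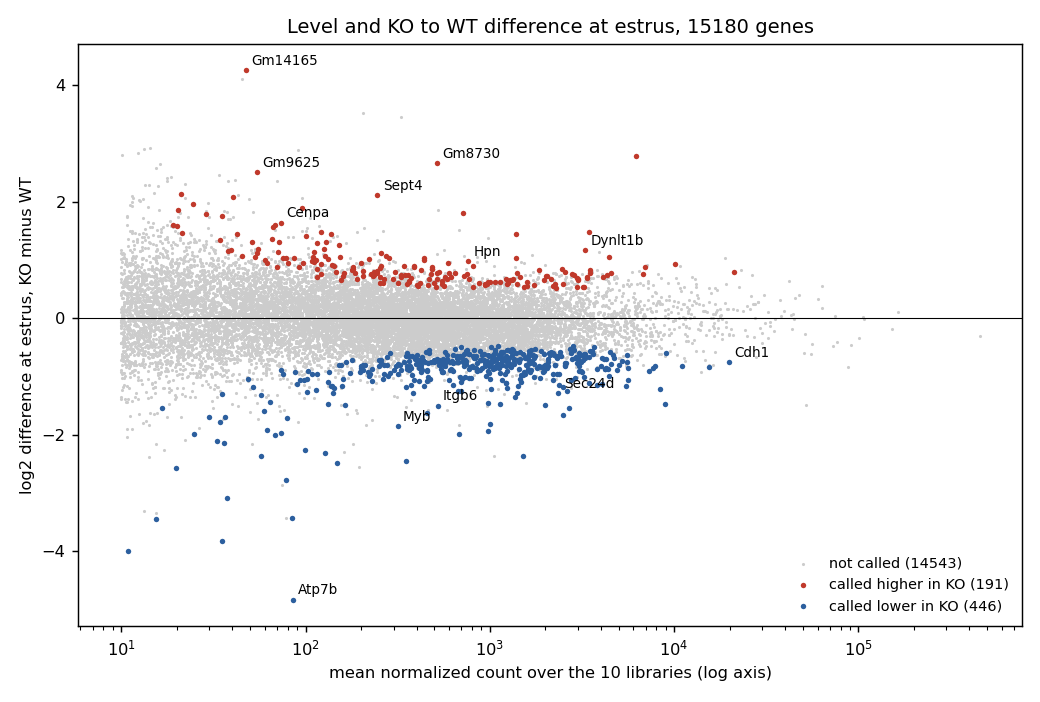
Each point is 1 of the 15180 tested genes, with the mean normalized count over the 10 libraries on a log axis and the log2 difference between the mean of the 3 KO and the 3 WT estrus libraries on the vertical axis. The 191 genes called higher are red and the 446 called lower are blue; Atp7b has the lowest value (-4.83), and Gm14165 the highest of a called gene (4.26).

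The calls that did not depend on 1 library were taken as the core of the comparison. A set of 32 genes, 8 higher and 24 lower, was called in each of the 10 fits that left out 1 library. In 31 of the 32 the 3 KO estrus libraries lay outside the range of all 7 other libraries, the exception being Slc5a6. The same held for 91.5% of all 637 called genes and for 19.4% of all tested genes.

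Among the core genes that fell were both chains of integrin alpha-v beta-6, an epithelial receptor that releases active TGF-beta from its latent form. Itgav, the alpha chain, had 1170, 1297 and 1311 normalized counts in KO against 2382, 3516 and 3174 in WT. Its log2 difference was -1.25 ± 0.16 (SE, limma adjusted p = 0.00768). Itgb6, the beta chain, had 264, 209 and 191 counts in KO against 738, 745 and 437 in WT (log2 -1.5 ± 0.21, limma adjusted p = 0.00913). At diestrus both chains were at the WT level in KO, with 3279 and 3518 counts of Itgav against 2878 and 3647, and 629 and 665 of Itgb6 against 656 and 668. Vcl, which encodes vinculin, a protein that couples integrins to actin, went the same way at estrus, with 1121, 1414 and 1286 counts against 2338, 3422 and 2963. Anln, the actin-binding scaffold anillin, had 187, 209 and 174 counts against 773, 413 and 642. In these 4 genes the highest KO library was below the lowest WT library at estrus.

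Regulators of signalling and transcription also fell in the core set. Ets1, a transcription factor whose activity is raised by ERK, had 1302, 1109 and 1520 counts in KO against 2848, 3076 and 2744 in WT (log2 -1.15 ± 0.16, limma adjusted p = 0.00833). Il6st, the shared receptor chain gp130 of the interleukin 6 family, had 1621, 2014 and 1869 against 3049, 3948 and 3276. Cyld, a deubiquitinase that limits NF-kappa-B signalling, had 470, 607 and 561 against 973, 1089 and 1002. For Il6st and Cyld the KO diestrus libraries were the highest of all 10, at 4414 and 4550 for Il6st and 1412 and 1366 for Cyld. Myb, a transcription factor of hormone-receptor-positive cells, had 104, 147 and 90 counts against 372, 310 and 576 at estrus, and 208 and 350 against 516 and 486 at diestrus. The antisense transcript Gm26577, which lies inside Myb (GRCm38 chromosome 10, 21145094 to 21154374), had 22, 38 and 24 counts against 131, 96 and 195. Whether the counting used strand is not given in the sources used here, so reads of Myb and Gm26577 cannot be told apart.

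Enzymes and transporters made up most of the other falls in the core set. Mgea5, the enzyme that removes O-linked N-acetylglucosamine from proteins, had 1749, 1926 and 1976 counts in KO against 3253, 3584 and 3833 in WT. Slc30a4, a zinc transporter that loads zinc into milk, had 568, 648 and 517 against 1164, 1660 and 1207. Hdac6, the deacetylase of tubulin, had 846, 1026 and 1080 against 1745, 2085 and 1750. Nedd4l, a ubiquitin ligase for membrane channels, was lower by a similar amount, with means of 2228 ± 70.0 and 4880 ± 782 (SD, n = 3 each). Slc5a6, the multivitamin transporter for biotin and pantothenate, was low in KO at both stages, as Myb was, with 2073, 3150 and 2357 counts against 5146, 5055 and 6373 at estrus, and 2098 and 2252 against 5086 and 4650 at diestrus. Its log2 difference was -1.14 ± 0.17 at estrus (limma adjusted p = 0.0125) and -1.16 at diestrus (limma adjusted p = 0.0913). The other core falls named here were Crybg1, Lrch3, Morc2a, Slc35a5, Specc1l, Sipa1l2, Arfgap3, Gcnt4 and Sec24d.

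**Figure D2:**
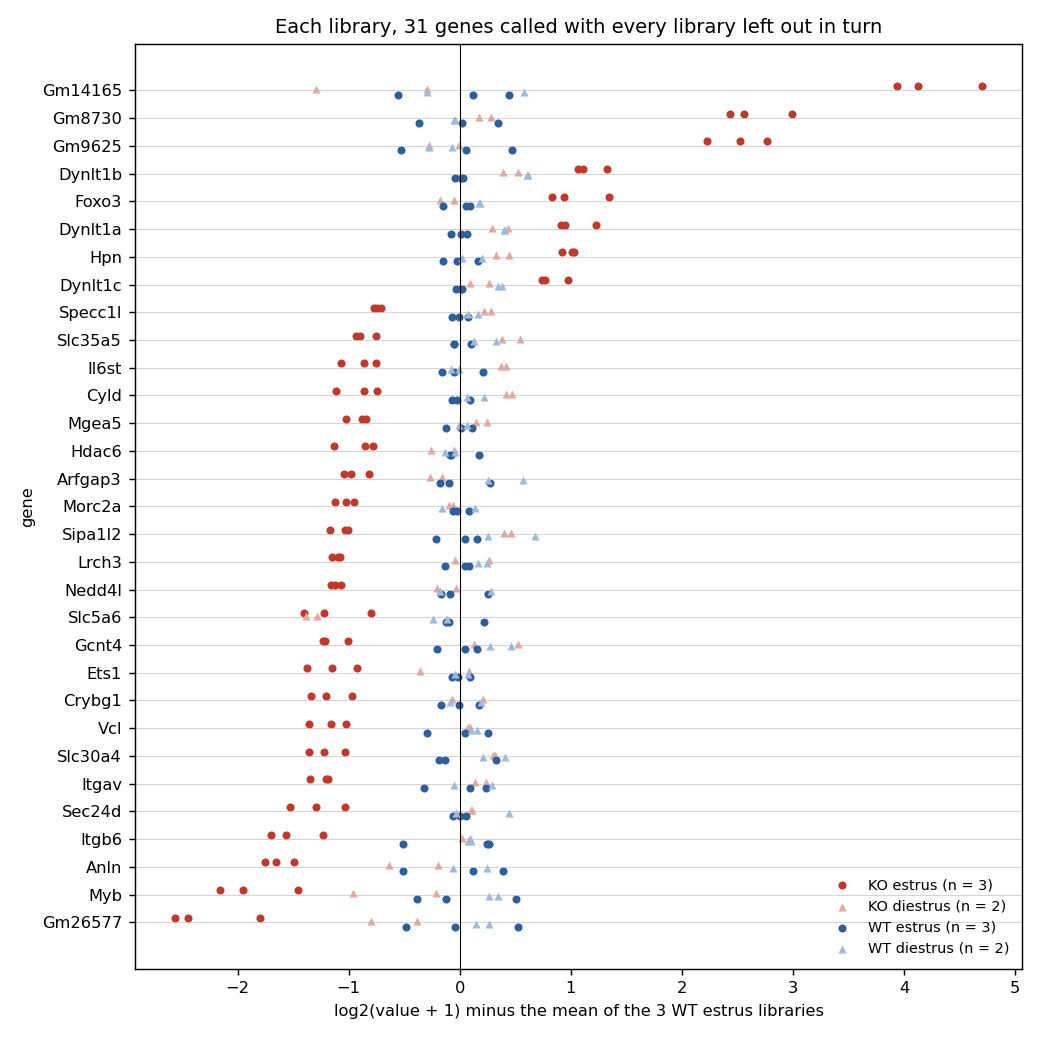
Each row is 1 of 31 of the 32 genes called with every library left out in turn, and each point is 1 library, as log2(value + 1) minus the mean of the 3 WT estrus libraries. Red and blue circles are KO and WT estrus libraries, and pale triangles are diestrus libraries; in every row but that of Slc5a6 the red circles stand apart from all 7 other points.

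Sec24d was the largest fall among the proteins of the COPII coat, which buds vesicles carrying new secretory and membrane proteins from the endoplasmic reticulum (ER). Sec24d, which selects cargo as part of the inner coat, had 931, 1315 and 1100 normalized counts in KO at estrus against 2804, 2577 and 2707 in WT, and 2888 and 2912 against 2633 and 3668 at diestrus. At estrus the KO values were below those of WT and at diestrus the groups overlapped, but the difference between stages did not pass the adjusted test (interaction log2 of -1.19, limma unadjusted p = 0.000531, adjusted p = 0.165). Against 2.94% called lower among all tested genes, 7 of 27 tested genes of the coat and of ER exit were lower. Of the 27, 0 were higher and 24 had a log2 difference below 0. Their median was -0.38, against -0.01 over all tested genes. The other 6 were the cargo adaptors Sec24b and Sec24c, the inner coat GTPase activators Sec23a and Sec23b, the outer coat protein Sec31a, and Uso1, the vesicle tether p115. Sec23b had 1597, 2075 and 2062 counts against 3638, 2877 and 4291 (log2 -0.91 ± 0.16, limma adjusted p = 0.0229), and Sec31a had 1972, 2446 and 1795 against 2984, 3029 and 4008 (log2 -0.69 ± 0.17, limma adjusted p = 0.0446). The summed level of all 28 measured genes, tested or not, was 50097, 57491 and 58351 in KO and 73638, 66110 and 73175 in WT. At diestrus it was 72509 and 71806 against 66104 and 79679. The count of 7 fell to 1 without KO estrus 1, WT estrus 3 or either KO diestrus library, to 2 without either WT diestrus library and to 3 without WT estrus 2. The median stayed between -0.42 and -0.33 in all 10 of these fits, but leaving out a diestrus library cannot change it. Sec24d was called in each, which is how core genes were picked. With the trend on transcript length and GC content removed in each library, 3 were called lower and the median was -0.26.

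The region before the start of COPII genes was read for known motifs because these genes lay on the same side together. RefSeq promoter entries of GRCm38.p6 matched 25 of the 27 genes and 10192 of the 15170 tested symbols, and the 250 bases before the start were searched on both strands. ACGTG, the core letters bound by hypoxia-inducible factors, was in 44.0% of the COPII windows and 21.8% of all windows. ETS letters, CCGGAAG, were in 28.0% and 14.3%. ACGTG also lies within the E-box CACGTG, which was in 16% and 8.39%. In the 333 genes called lower that had an entry, ACGTG was in 22.5% and CCGGAAG in 12.6%, so these shares were close to those of all genes. Similar shares were seen in other lists. CCGGAAG was in 28.3% of the windows of cytosolic ribosomal proteins, which lay on the other side. ACGTG was in 43.3% of those of ER chaperones and unfolded protein response genes, which lay mostly on the same side as COPII genes (median log2 -0.25). The 150 bases before the start are shown for the 4 called COPII genes whose RefSeq and GENCODE starts were the same. Capitals mark ACGTG or CCGGAAG, on either strand, or, in Sec23b, CCAAT read on the other strand.
Uso1 (GRCm38.p6 chr5:92137788-92137937, plus strand): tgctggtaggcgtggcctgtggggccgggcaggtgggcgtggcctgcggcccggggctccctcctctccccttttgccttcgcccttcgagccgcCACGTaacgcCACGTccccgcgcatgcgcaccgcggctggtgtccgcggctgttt
Sec31a (chr5:100416235-100416384, minus strand): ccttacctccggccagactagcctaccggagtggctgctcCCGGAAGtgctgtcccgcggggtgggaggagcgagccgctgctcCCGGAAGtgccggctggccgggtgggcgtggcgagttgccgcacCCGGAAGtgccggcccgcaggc
Sec23a (chr12:59012018-59012167, minus strand): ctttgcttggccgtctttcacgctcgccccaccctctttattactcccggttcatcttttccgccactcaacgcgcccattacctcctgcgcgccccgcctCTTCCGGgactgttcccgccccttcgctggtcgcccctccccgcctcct
Sec23b (chr2:144556079-144556228, plus strand): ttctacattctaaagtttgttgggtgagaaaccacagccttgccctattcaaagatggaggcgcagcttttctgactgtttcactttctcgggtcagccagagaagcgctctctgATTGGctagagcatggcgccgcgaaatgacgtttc
Uso1 holds ACGTG at 2 places and Sec31a holds CCGGAAG at 3. A match of letters is a description and shows no binding.

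Other genes of the ER had fewer calls, to be read against 2.94% lower and 1.26% higher over all tested genes. Of 37 ER chaperones and unfolded protein response genes, 3 were lower and 0 higher, with a median log2 of -0.25 and 30 below 0. They were Eif2ak3, the ER stress kinase PERK, with 269, 443 and 307 counts in KO against 715, 776 and 889 in WT (log2 -1.25 ± 0.20, limma adjusted p = 0.0165), Edem3 and Ssr3. No gene of the list was called without KO estrus 1 or WT estrus 3, where the adjusted p of Eif2ak3 was at most 0.0530, and 1 was called without WT estrus 2. The summed level of the list overlapped between genotypes, from 106543 to 194902 in KO and 147253 to 202910 in WT. Of 20 aminoacyl-tRNA synthetases, which charge tRNAs with amino acids, 1 was lower, Iars, and the median was -0.36. Its call was lost without KO estrus 1, WT estrus 2, WT estrus 3 or any diestrus library, with an adjusted p of up to 0.116. Proteasome subunits had 0 limma calls among 37 and a median of 0.01. At an unadjusted p below 0.05 there were 7 of them, against 25.8% of all tested genes.

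Cytosolic ribosomal proteins lay on the other side. All 81 tested members had a log2 difference above 0, with a median of 0.68. Of these, 12 were called higher (limma, adjusted over all genes), against 1.26% of all tested genes. The summed level of all 83 measured members, tested or not, was 581670, 404345 and 334376 in KO and 289297, 269720 and 260980 in WT. KO estrus 1 was thus the highest. When KO estrus 1, WT estrus 2, WT estrus 3 or any diestrus library was left out, 0 were called. Leaving out KO estrus 2 gave 3 calls, WT estrus 1 gave 10 and KO estrus 3 gave 76, while the median ranged from 0.44 (without KO estrus 1) to 0.88. Mitochondrial ribosomal proteins had a median of 0.27 over 78 members, with 2 called higher, Mrpl30 and Mrpl57. There were 6 without KO estrus 3 or WT estrus 1 and 0 without any other library. After a correction for transcript length and GC content in each library, the cytosolic list had a median of 0.50 and 1 call.

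Transcript length moved with the direction of the calls. The median length of the longest annotated transcript was 1516 bases among the genes called higher, 4340.5 among those called lower and 2927 over all tested genes. When the genes were split by length into 4 groups of equal size, 101 were higher and 32 lower among the shortest, up to 1639 bases, and 18 were higher and 215 lower among the longest, from 4404 bases. Within single libraries, the change in level per doubling of length, relative to the mean library, was -0.12, -0.03 and -0.08 on the log2 scale in KO estrus 1, 2 and 3, and -0.02, 0.03 and 0.03 in the WT estrus libraries. With the trend on length and GC content removed, 56 genes were higher and 158 lower, and all 32 core genes were called. The part of RNA quality or library preparation in this was not tested; the labels give a RIN, a score of RNA integrity, of 8 for all samples.

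The largest rises of the core set were 3 processed pseudogenes of Rplp0, which encodes the ribosomal stalk protein P0. Processed pseudogenes are copies of a messenger RNA inserted in the genome. Gm8730 (GRCm38 chromosome 8, 102864845 to 102865798) had 1553, 1147 and 1051 normalized counts in KO at estrus and 197, 246 and 150 in WT, a 6.33-fold difference of the means. Gm14165 (chromosome 2, 152353615 to 152354566) had 191, 128 and 112 against 4, 9 and 7, and Gm9625 (chromosome 13, 67810246 to 67811200) had 156, 132 and 107 against 31, 23 and 15. At diestrus Gm8730 had 219 and 236 counts in KO against 187 and 188 in WT, Gm14165 had 2 and 5 against 10 and 5, and Gm9625 had 18 and 22 against 18 and 21, far below the KO estrus values. Rplp0 itself had 16845, 13990 and 13223 counts in KO and 11433, 11479 and 9419 in WT, and was not called (log2 0.44 ± 0.15, limma adjusted p = 0.0985). Gm8730 thus had 9.22%, 8.20% and 7.95% of the count of Rplp0 in the KO estrus libraries, and 1.59% to 2.14% in the other 7. The copies differ from the Rplp0 coding sequence of 954 bases by 12 aligned bases (Gm8730), 25 (Gm9625) and 27 (Gm14165), and they differ from each other by 21 to 34. Reads of such near-identical copies can be split by the authors' counting, so the source of these counts is uncertain. A stretch of the Rplp0 coding sequence (GENCODE M21, positions 274 to 393) and its match in the copies shows how alike they are, with capitals marking bases that differ from Rplp0.
Rplp0: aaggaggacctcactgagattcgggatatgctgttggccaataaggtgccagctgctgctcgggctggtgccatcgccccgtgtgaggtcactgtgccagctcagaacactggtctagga
Gm8730: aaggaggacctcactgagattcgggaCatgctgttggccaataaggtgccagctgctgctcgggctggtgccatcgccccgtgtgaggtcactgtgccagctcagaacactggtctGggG
Gm14165: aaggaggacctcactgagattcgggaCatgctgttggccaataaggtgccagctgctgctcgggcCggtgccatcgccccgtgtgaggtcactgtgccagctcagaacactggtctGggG
Gm9625: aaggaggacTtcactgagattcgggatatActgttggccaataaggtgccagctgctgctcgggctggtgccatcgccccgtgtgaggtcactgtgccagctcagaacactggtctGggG
The copies differ from Rplp0 at 3 or 4 of these bases. Over all 695 processed pseudogenes tested, 12 were higher (1.73%) and 2 lower. The shares over all tested genes were 1.26% higher and 2.94% lower, so the share of calls was near or below these. The median log2 of the processed pseudogenes was 0.20, against -0.01 over all tested genes.

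Among neighbouring genes on chromosome 17, 7 in one stretch were called higher. The stretch holds the 4 copies of Dynlt1, which encodes a light chain of the motor protein dynein. Dynlt1b (GRCm38 chromosome 17, 6430112 to 6436296) had 5305, 4551 and 4434 counts in KO against 2135, 2153 and 2051 in WT (log2 1.17 ± 0.12, limma adjusted p = 0.00384). Dynlt1a had 2262, 1864 and 1827 against 1012, 976 and 917, Dynlt1c had 5244, 4543 and 4456 against 2609, 2690 and 2697, and Dynlt1f had 2933, 2642 and 2587 against 1657, 1691 and 1599. WT libraries at estrus were lower than WT libraries at diestrus as well, where Dynlt1b had 3242 and 3214 counts in WT and 3038 and 2767 in KO. The coding sequences of Dynlt1a, Dynlt1c and Dynlt1f, 342 bases each, are identical and that of Dynlt1b differs from them at 1 base, so their separate values are uncertain. The first 120 coding bases show that base in capitals.
Dynlt1c: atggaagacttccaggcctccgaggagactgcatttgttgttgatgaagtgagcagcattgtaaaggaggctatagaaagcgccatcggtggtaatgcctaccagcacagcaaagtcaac
Dynlt1b: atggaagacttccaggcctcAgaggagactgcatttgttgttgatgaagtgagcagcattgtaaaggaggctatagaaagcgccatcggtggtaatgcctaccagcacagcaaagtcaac
Between and beside the copies, Sytl3 had 187, 223 and 254 counts in KO against 108, 119 and 92 in WT (log2 1.05 ± 0.19, limma adjusted p = 0.0241), and the lincRNA Gm26848 and the pseudogene Tmem181b-ps were also called higher. Gm26848 overlaps Dynlt1a, Dynlt1b and Tmem181b-ps, so their reads cannot be told apart without strand. Dynlt1f and Sytl3 lost their calls without WT estrus 2 or WT estrus 3, at adjusted p of up to 0.0561 and 0.0674. Gm26848 was lost without these or KO estrus 1 (up to 0.0570), and Tmem181b-ps kept its call in 3 of the 10 fits, those without KO estrus 2, KO estrus 3 or WT estrus 1 (up to 0.0722). Tmem181c-ps, inside the stretch, was not called, and neither were the neighbours Ezr, Tmem181a and Tulp4. Among the genes before Tmem181a, Snx9, Synj2 and Serac1 had log2 differences of -0.50, -0.42 and -0.73 and were not called. Gtf2h5, Gm5812, Gm22774 and Gm15590 had 0.32, 0.18, 0.63 and 0.48 and were not called either. Farther out, the processed pseudogene Gm10231 (5816200 to 5816640) was called higher (log2 0.62 ± 0.14, limma adjusted p = 0.0385).

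**Figure D3:**
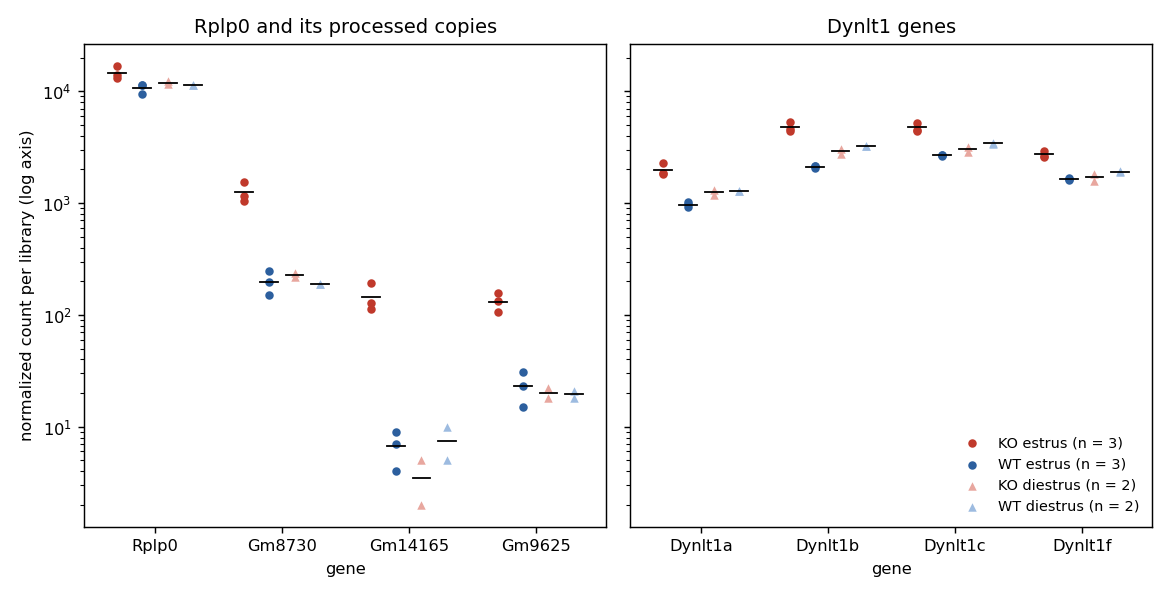
Normalized counts on a log axis in each of the 10 libraries, for Rplp0 and 3 processed copies (left) and the 4 Dynlt1 genes (right); short black lines are group means. The KO estrus libraries (red) are highest for every gene shown, by a wide margin in Gm8730, Gm14165 and Gm9625 and by less in Rplp0.

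Among the other core rises, Hpn, the membrane serine protease hepsin, had 1115, 1050 and 1131 counts in KO and 623, 546 and 500 in WT (log2 0.99 ± 0.13, limma adjusted p = 0.00791). Foxo3, a transcription factor that restrains growth and is held out of the nucleus by growth factor signalling, had 407, 378 and 540 against 191, 227 and 221. Outside the core set, among abundant genes that were lower, Cdh1, the epithelial adhesion protein E-cadherin, had 9927, 13472 and 13761 against 20434, 23805 and 18220 (log2 -0.76 ± 0.18, limma adjusted p = 0.0430). Its call was lost in 9 of the 10 fits, all but that without KO estrus 3, with an adjusted p of up to 0.117.

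The lists of the pathway that contains RSK2 had 1 call each, a share close to the 4.2% called over all tested genes. Of 31 genes of the ERK cascade, from ErbB receptors to the RSK and MNK kinases, 1 was higher, Mapk3, which encodes ERK1. It had 1356, 1160 and 1161 counts in KO and 883, 801 and 749 in WT (log2 0.59 ± 0.15, limma adjusted p = 0.0451), and it kept its call only without KO estrus 3 or WT estrus 1, the adjusted p reaching 0.124 in the others. Of 29 tested RSK substrates and partners, 1 was higher, the transcription factor Cebpb, with 2742, 2340 and 3677 counts against 1887, 1839 and 1640 (log2 0.68 ± 0.17, limma adjusted p = 0.0459), a call kept only without KO estrus 2, with an adjusted p of up to 0.123 in the others. Of 20 genes induced by ERK, 1 was lower, the transcription factor Etv5, with 99, 76 and 68 counts against 215, 174 and 311. Its call was lost only without WT estrus 3 (limma adjusted p = 0.0521). An unadjusted limma p below 0.05 was seen in 8, 13 and 8 genes of these 3 lists, in the order given, against 25.8% of all tested genes. KO libraries lay all above the WT ones in 3, 8 and 1 genes (12.9% of all tested genes). They lay all below in 5, 1 and 3 (13.1%).

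Hormone receptor genes were not called. Esr1, the estrogen receptor, had 1468, 2323 and 1472 counts in KO and 1800, 3334 and 1865 in WT, and Pgr, the progesterone receptor, had 986, 920 and 748 against 1092, 902 and 1085. Both overlapped between the groups. Of 25 receptors and luminal transcription factors, 2 were lower, Myb and Ehf, an ETS factor of epithelia with 844, 750 and 525 counts against 1383, 1504 and 1448. Ehf lost its call without WT estrus 2 or WT estrus 3, at an adjusted p of up to 0.0675. Over all tested genes 2.94% were called lower. Of 9 tested genes that make or break down estrogen, 0 were called by limma, 4 had an unadjusted p below 0.05, and 4 had KO libraries all above the WT ones. The shares over all tested genes were 25.8% for such a p and 12.9% for KO libraries all above. The summed level of all 16 measured genes of this list, tested or not, was 13771, 12938 and 13352 in KO at estrus. It was 11280, 11192 and 10378 in WT, and at diestrus 10562 and 8958 against 10674 and 10891.

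Smaller groups of calls were seen in sterol metabolism and the cell cycle, to be read against 2.94% lower and 1.26% higher over all tested genes. Of 31 genes of cholesterol synthesis, uptake and export, 3 were lower. Sqle, the squalene epoxidase of cholesterol synthesis, was among them, with 1000, 1277 and 1773 counts in KO and 2536, 2096 and 3160 in WT (log2 -0.96 ± 0.21, limma adjusted p = 0.0365). None of the 3 was called without KO estrus 1, WT estrus 2, WT estrus 3 or either KO diestrus library, and Sqle kept its call in 2 of the 10 fits, those without KO estrus 3 or WT estrus 1, with an adjusted p of up to 0.106 in the others. Of 38 genes of S phase and mitosis, 4 were higher, Cenpa, Stmn1, Cdca8 and Tk1, with a median log2 of 0.55 over the list. Stmn1, a protein that destabilizes microtubules, had 293, 238 and 221 counts against 76, 91 and 101. No gene of this list was called without KO estrus 1 or WT estrus 2, where Stmn1 had an adjusted p of up to 0.0663, and 1 was called without WT estrus 3. Cdca8 kept its call in 0 of the 10 fits (adjusted p of up to 0.124) and Tk1 in 2, those without KO estrus 3 or WT estrus 1 (up to 0.112). With the trend on length and GC content removed, 2 genes of the list were called.

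Among 30 genes of p53 and its targets, 3 were lower, with a median log2 of -0.22. Beside this and the next counts stand 2.94% lower and 1.26% higher over all tested genes. Mdm2, the ubiquitin ligase that degrades p53, had 1311, 1403 and 1108 counts in KO and 2184, 2292 and 2247 in WT (log2 -0.82 ± 0.14, limma adjusted p = 0.0176). Trp53inp1 and Ccng1 were the others, and 0 were called without WT estrus 2 or WT estrus 3, where Mdm2 had an adjusted p of up to 0.0594, and 1 without KO estrus 1. Of 34 antioxidant genes, 3 were lower, the glutathione and thioredoxin reductases Gsr and Txnrd1 and the pentose phosphate enzyme G6pdx, and 1 was higher, the glutathione transferase Gstm4. None of these 4 was called without KO estrus 1, WT estrus 2, WT estrus 3 or either KO diestrus library, with adjusted p of up to 0.112. Genes of glucose uptake and glycolysis had 2 lower of 29, Slc2a3 and Pfkfb2, and the interleukin 33 axis had 2 lower of 9, its receptor Il1rl1 and Il1r1, with a median log2 of -0.78. These 4 calls were kept in 2 or 3 of the 10 fits each, and none was called without KO estrus 1 or either KO diestrus library, with adjusted p of up to 0.114. Genes of the circadian clock (19 tested), of autophagy and lysosomes (34), of the interferon response (19) and G1 cyclins, kinases and inhibitors (19) had 0 calls by limma, with 4, 5, 1 and 5 at an unadjusted p below 0.05. Such a p was seen in 25.8% of all tested genes.

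**Figure D4:**
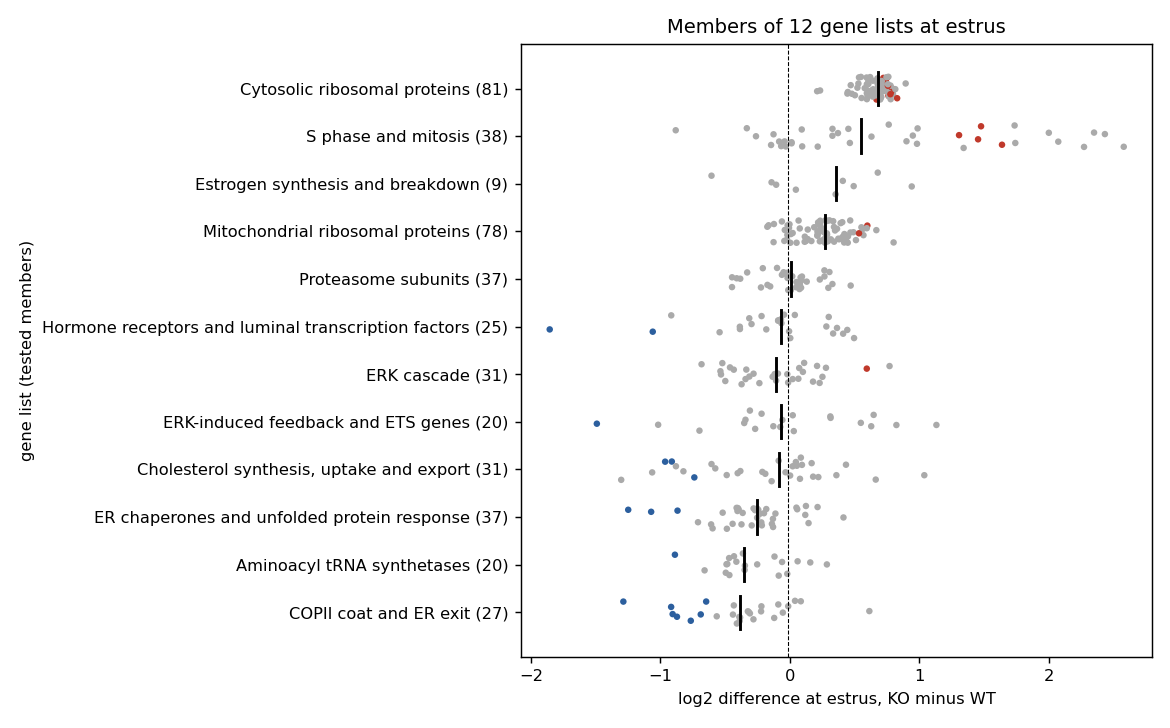
Each point is a tested member of 1 of 12 gene lists, at its log2 difference at estrus, KO minus WT; red points were called higher, blue points lower and grey points were not called. Black bars are list medians and the dashed line is the median of all tested genes. The lists were picked from those described in the text; cytosolic ribosomal proteins have a median of 0.68 and COPII genes one of -0.38.

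Over all tested genes 4.2% were called, and the share among marker genes of other cell types that the gate could hold was not above that. Their 1 call was Trbc2, a constant region of the T cell receptor and the only lymphocyte marker tested, which was higher in KO. At estrus its values were 183, 150 and 137 in KO libraries and 90, 57 and 68 in WT libraries (log2 1.13 ± 0.22, limma adjusted p = 0.0276), and 98 and 88 against 129 and 106 at diestrus. The call was lost without KO estrus 1, WT estrus 2, WT estrus 3 or either KO diestrus library, at an adjusted p of up to 0.0881. In sorted bulk cells, a change in the number of cells of a type and a change in RNA per cell cannot be told apart. Of 8 macrophage and MHC class II genes tested, 0 were called by limma and 3 had an unadjusted p below 0.05 (25.8% over all tested genes). Of these 8, 7 had a log2 difference above 0 and the median was 1.28. The summed level of all 13 measured macrophage and MHC class II genes, tested or not, was 1243, 1225 and 787 in KO estrus libraries. It was 794, 833 and 372 in WT estrus libraries, and 372 to 883 in all 7 other libraries. Cd74, the invariant chain of MHC class II, had 409, 436 and 215 counts in KO and 211, 222 and 32 in WT. Of 10 basal cell markers 0 were called by limma (1 at an unadjusted p below 0.05), with a median of -0.45. The summed level of all 13 measured basal markers, tested or not, was 1427 to 2453 in KO and 1755 to 3540 in WT. Of 10 luminal progenitor markers 0 were called by limma (3 at an unadjusted p below 0.05), with a median of -0.24. Fibroblast, endothelial and erythroid markers, 3 tested of each, and 2 adipocyte markers had 0 calls by limma, with 1 fibroblast gene at an unadjusted p below 0.05. The part of these cells in the differences above was not tested.

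At diestrus, 6 genes were called between the genotypes (0.0395% of those tested), 4 higher in KO (0.0264%) and 2 lower (0.0132%), with 899 (5.92%) at an unadjusted p below 0.05. Of the 6, 1 was also called at estrus: Ank, a membrane protein that exports pyrophosphate. Ank had 95, 93 and 86 counts in KO and 43, 47 and 58 in WT at estrus, and 184 and 201 against 58 and 58 at diestrus. Its estrus call was kept only without KO estrus 3, and its adjusted p reached 0.102 in the other fits. Of the genes called at estrus, 61.3% of the higher and 51.3% of the lower ones had the same sign at diestrus, where 49.4% of all tested genes were above 0 and 50.5% below. The genotype by stage interaction, which tests the difference between the stages, had 0 calls (limma, lowest adjusted p = 0.0812), with 2150 genes (14.2%) at an unadjusted p below 0.05, and 3 calls with quantile normalization and 6 with library weights. So the difference was not shown to be particular to estrus, for any gene in the fit reported here.

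Among the genes called lower at estrus, those with the largest differences were more often low at diestrus as well. Of 17 genes that were lower by a log2 of more than 2, 15 were below 0 at diestrus and 10 were also below -1 there. Of 86 that were lower by a log2 of 1 to 2, 60 were below 0 at diestrus and 5 were below -1. Of 343 that were lower by a log2 of up to 1, 154 were below 0 at diestrus and 1 was below -1. Bnc1, a transcription factor of basal epithelial cells, had 10, 11 and 11 counts in KO against 215, 70 and 32 in WT at estrus, and 25 and 22 against 181 and 206 at diestrus. Its call at estrus was lost without KO estrus 1, WT estrus 2 or either KO diestrus library, at an adjusted p of up to 0.0752. P4ha2, a collagen prolyl hydroxylase, had a smaller estrus difference (log2 -1.93) and is not among the 17. Its counts were 456, 559 and 172 against 1334, 839 and 2170 at estrus, and 302 and 231 against 1384 and 2318 at diestrus. Its call was kept in 2 of the 10 fits, those without KO estrus 2 or KO estrus 3. Of 133 genes higher by a log2 of up to 1, 78 were above 0 at diestrus and 2 above 1. Of 51 higher by a log2 of 1 to 2, 33 were above 0 and 6 above 1. Of the 7 genes higher by a log2 of more than 2, 6 were above 0 at diestrus and 2 above 1. Sept4, a septin, had 387, 520 and 546 counts in KO against 66, 102 and 197 in WT at estrus, and 271 and 258 against 64 and 43 at diestrus, and its estrus call was lost only without WT estrus 2 (adjusted p = 0.0521).

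**Figure D5:**
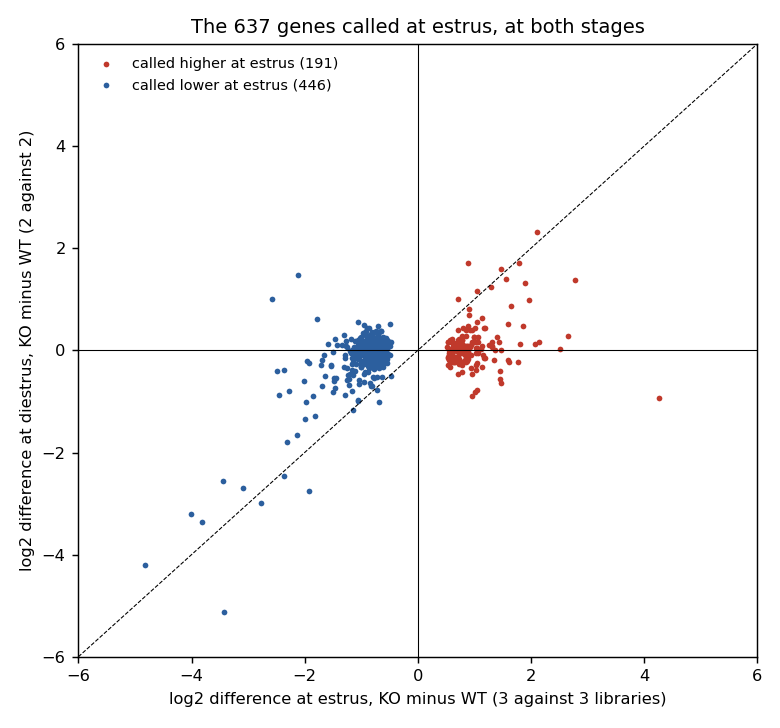
Each point is 1 of the 637 genes called at estrus, with its log2 difference between KO and WT at estrus (3 against 3 libraries) on the horizontal and at diestrus (2 against 2) on the vertical axis; the dashed line marks equal differences. Most points lie near 0 at diestrus, and of the 17 genes lower by a log2 of more than 2 at estrus, 10 are also below -1 at diestrus.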

How the data were processed

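RNA of sorted mammary epithelial cells was sequenced with a TruSeq RNA kit in 10 libraries, per the labels' protocols. STAR, HTSeq, DESeq2 and the build mm10 are named for alignment, counting and normalization, per the submitters' processing notes; versions, settings and strand use are not given in the sources used here. The authors deposited 1 score for each gene in each library, a normalized count rounded to an integer, with totals of 14108057 to 15307238. Library factors were read from missing and doubled whole numbers in the low values (largest error 0.0012 on simulated libraries).

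Values were used as log2(value + 1), for genes with a mean of at least 10 over 10 libraries. The first gene inside this limit was Mir3091 (mean 10.0) and the first outside was Pear1 (9.9). limma 3.58.1 (R 4.3.3) estimated group means from all 10 libraries together, letting the spread follow the level, and two-sided p-values were adjusted across the tested genes (Benjamini-Hochberg, 0.05). A permutation test over samples was used for Rps6ka3. Positions, lengths and coding sequences came from GENCODE M21 (GRCm38), which paired 26249 of the 26312 identifiers with symbols, and promoters came from RefSeq. Copies were aligned with edlib 1.3.9.post1, and Python 3.11.15 with matplotlib 3.10.9 drew the figures.

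In simulated libraries of this design, the fit called 7.46% of genes changed 1.5-fold at estrus, 53.7% of those changed 2-fold and 83.3% of those changed 4-fold. It called 5 of 14980 unchanged genes. Each gene was drawn independently, so differences that many genes of 1 library share were not simulated. These rates therefore do not measure the error in the real libraries.

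Genes were named by rule: the RSK family, the largest called differences with a mean of at least 50, the most abundant called genes, the most stable calls, up to 8 called members per list, and the genes of lowest interaction p. The pseudogenes of Rplp0, the neighbours of Dynlt1, and comparisons of copies were chosen after their values were seen, as were genes named outside the rule. The gene set, lists and rule were chosen with earlier results of these data known. Some genes are not reported here. Each list not described in the text had at most 2 called members. Alternatives covered pseudocounts, filters, scaling, the spread, the replicate block, length and GC content, and leaving out each library.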

Additional observations from a re-analysis of the deposited data

How the results depend on the processing

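The 637 genes called at estrus became 89 with no filter on low values, 44 without a trend in the spread, 229 with library weights, 23 with the estrus libraries alone and 214 with the trend on length and GC content removed. With 1 library left out the count ranged from 67 to 909. The 32 core genes were called in each fit with 1 library left out because they were picked so. In the other alternatives they were called with these exceptions: 18 remained with the estrus libraries alone and 24 remained without the trend in the spread. Gm14165 was not tested with a mean of at least 50. Slc35a5 was not called with the replicate block and the length and GC trend removed together. None of the named called genes changed direction in any alternative. With a library left out this was fixed in advance, because the KO and WT estrus libraries of called genes did not overlap. For the same reason it was fixed with other pseudocounts and with library weights. Other filters, other estimates of the spread, the estrus libraries alone and the replicate block leave the log2 differences as they are. A direction could change only with other scaling or with the length and GC trend removed. The 6 genes called at diestrus became 0 with no filter, 3 with a mean of at least 50, 2 with the spread held flat and 147 with library weights, and they ranged from 0 to 28 with 1 library left out. The interaction had 0 calls, but 3 with quantile normalization and 6 with library weights, and from 0 to 3 with 1 library left out. Causes were not tested.

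Replicate numbers 1 to 3 are not stated to pair the samples. Deviations of same-numbered KO and WT estrus libraries correlated at 0.19, 0.08 and 0.03, and those of differently numbered ones at -0.15 to 0.08. Whether libraries of the same number share anything was not tested. With the replicate block 996 genes were called at estrus, and with the replicate block and the length and GC trend removed 300 were.

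In simulated libraries of this design, with genes drawn independently, 7.46% of 1.5-fold changes were called. In that setting, differences of this size or smaller were mostly not detectable at this number of libraries.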
